A study of Mus musculus with 3 samples.

Results

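CA3 is the part of Ammon's horn that lies between the dentate gyrus (DG) and CA1 in the hippocampus (HIP). Its members here are the spots with the deposited area label CA3. They number 216 of 8549 listed spots, of which 84 come from CON, 68 from RES and 64 from SUS. The study used 10x Genomics Visium, in which barcoded spots on a slide bind the mRNA of the tissue above them, on coronal sections of 10 μm from the left brain of male C57BL/6J mice aged 8 weeks. The Resilient (RES) and Susceptible (SUS) mice went through 10 days of chronic social defeat stress (CSDS) by aggressive CD-1 males, and their brains were taken 1.5 h after the last exposure. The study calls mice resilient at a social interaction ratio above 1 and susceptible below 1, and when the sequenced mice were tested relative to collection is not clear from its methods. The Control (CON) mice met non-aggressive C57BL/6 mice daily and were otherwise kept behind the same kind of divider. Each condition has 1 section, so a difference between sections cannot be told apart from a difference between conditions, animals, slides or levels of cutting, and no test between conditions was made.

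CA3 is built around a curved layer of large excitatory pyramidal cells. Their dendrites receive the mossy fibres of the DG granule cells, their axons form recurrent contacts within CA3, and their Schaffer collaterals carry the output to CA1. CA3 is known for its part in the rapid storage and recall of memory and for the loss of dendritic branches under chronic stress. A Visium spot covers a patch of tissue that may span several cells or parts of cells, so a CA3 spot can lie over cell bodies, over the layers of dendrites and axons around them, or over both.

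5 measures were available for every spot. They are the number of unique molecular identifiers (UMIs, each counting 1 captured molecule), the number of genes seen by 1 UMI or more, and the percentages of UMIs from genes of mitochondria, ribosomal proteins and red blood cells. Counts per gene were not analysed here, so the label CA3 could not be checked against marker genes. In each section the CA3 spots formed 1 connected piece, which spanned 9 rows and 16 columns of the grid in CON, 7 rows and 15 columns in RES, and 7 rows and 14 columns in SUS. All of these spots were covered by tissue and none had under 1000 UMIs. Their UMIs added up to 1104125 in CON, 986032 in RES and 998938 in SUS. Between 21 and 48 barcodes of CA3 spots were shared by a pair of sections, and such a barcode marks a place on the slide and not the same tissue.

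The CA3 piece bordered the areas that surround CA3 in the mouse brain. Of the 504 neighbouring places of CA3 spots in CON, 82.1% held another CA3 spot, and the shares were 80.9% of 408 places in RES and 81.3% of 384 places in SUS. DG held 4.56%, 7.11% and 5.99% of these places in CON, RES and SUS, and CA1 held 2.78%, 3.19% and 2.86%. The fibre tracts (FB), the bundles of myelinated axons next to the hippocampus, held 5.56%, 4.90% and 5.99%. The thalamus (TH) held 4.56%, 3.19% and 3.91%, and the lateral ventricle (LV) touched 2 CA3 spots in CON, 2 in RES and none in SUS. All of these labels were set together by the authors, from histology, an atlas and marker genes, so the borders describe the CA3 piece and are no check of its name.

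The number of CA3 spots was highest in CON. They made up 2.92% of the listed spots for CON (exact Clopper-Pearson 95% interval 2.33 to 3.60), 2.40% for RES (1.87 to 3.04) and 2.25% for SUS (1.74 to 2.87). Within HIP, the CA3 share was 30.1% of 279 spots in CON (24.8 to 35.9), 25.1% of 271 in RES (20.04 to 30.7) and 23.4% of 273 in SUS (18.5 to 28.9). The number of HIP spots was thus close to equal in the sections, and the intervals of the CA3 shares overlap. DG, the neighbour on the other side, had 69, 84 and 86 spots in CON, RES and SUS. Whether the plane of the section moved with these numbers was not tested.

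**Figure D1:**
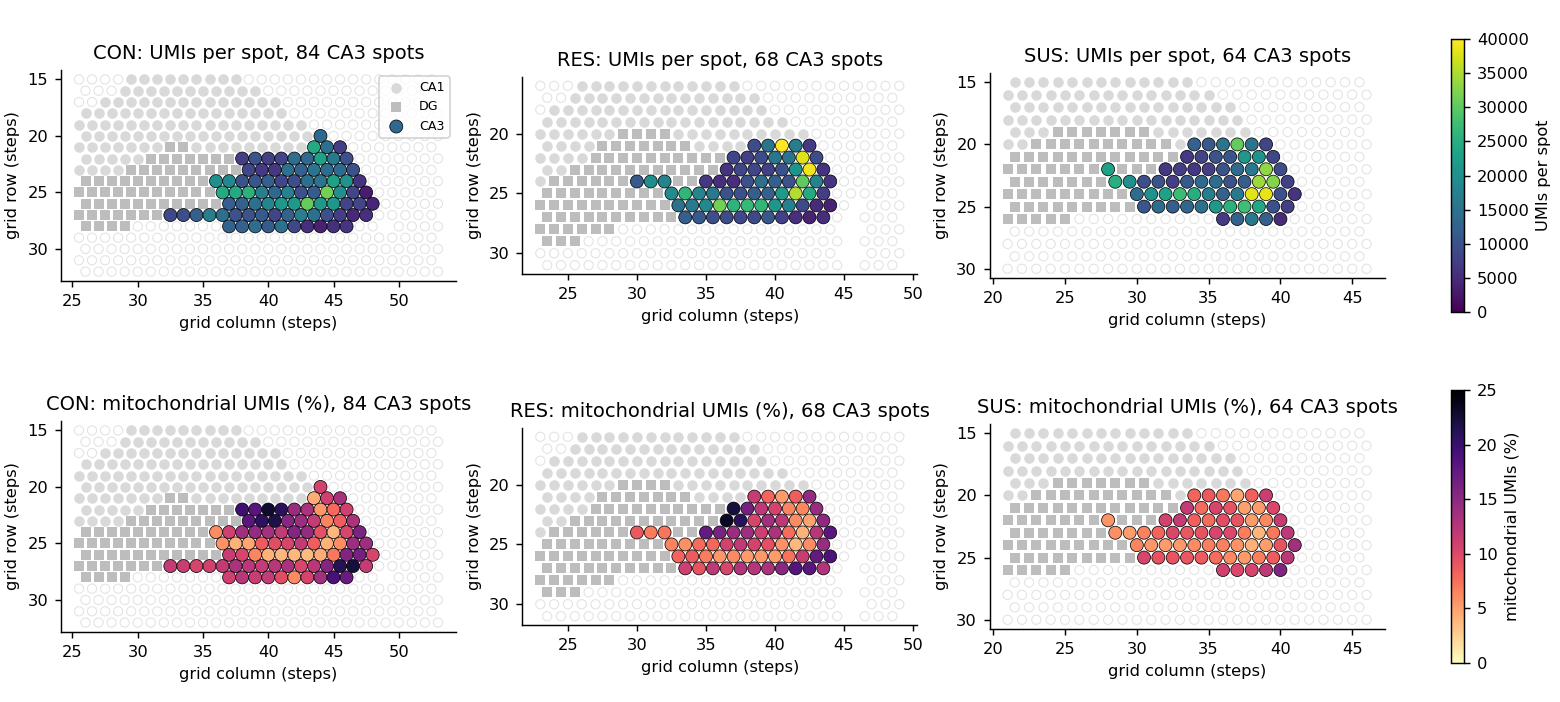
Maps of the CA3 spots by section, coloured by UMIs per spot in the upper row and by the percentage of mitochondrial UMIs in the lower row. Axes are steps along the capture grid, CA1 spots are light grey circles, DG spots are grey squares and spots of other areas are open circles. A curved line of spots with many UMIs runs through each CA3 piece, and the same spots are low in mitochondrial percentage.

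The depth of CA3 spots was similar in the middle of the distribution and wider at its upper end in the stressed mice's sections. CON spots ranged from 3010 to 31461 UMIs with a median of 12183 (95% order-statistic interval 10195 to 14168). RES spots ranged from 3611 to 41316 UMIs with a median of 11094 (9365 to 15374). SUS spots ranged from 4986 to 38384 UMIs with a median of 12902.5 (10647 to 15311). The 3 ranges overlap over most of their length. Relative to CON, the RES median was 0.911 times as high (0.661 to 1.51) and the SUS median 1.06 times (0.751 to 1.50), and both intervals include 1. With means in place of medians the RES value was 1.10, so its direction is not settled. Over all listed spots of the sections these ratios were 0.779 and 0.848. These intervals treat the spots of a section as independent and cover no difference between animals. In bulk measurements of this kind, fewer cells under a spot and less RNA per cell cannot be told apart.

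The spread among CA3 spots was larger than any difference between the sections' medians. The 90th percentile of UMIs was 3.49 times the 10th in CON, 4.57 times in RES and 3.83 times in SUS. The 90th percentile itself was at 21485 UMIs for CON. It was at 26413 for RES and 27575 for SUS, which is 1.23 and 1.28 times the CON value. At the lower end the 10th percentile was 6150, 5783 and 7206 UMIs. Spots above 20000 UMIs, a level chosen after the values were seen, were 15.5% of CA3 spots for CON (8.51 to 25.01), 20.6% for RES (11.7 to 32.1) and 28.1% for SUS (17.6 to 40.8). The intervals of these shares overlap.

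Spots with many UMIs lay next to each other within CA3. Adjacent spots are neighbours on the hexagonal grid, and deep spots are here the 25% of the CA3 spots of a section with the most UMIs. Adjacent CA3 spots differed by a median of 1.40-fold in UMIs in CON over 207 pairs, against 1.59-fold over all pairs of CA3 spots. In RES the values were 1.49-fold over 165 adjacent pairs against 1.80-fold, and in SUS 1.41-fold over 156 adjacent pairs against 1.67-fold. Adjacent spots were therefore more alike than CA3 spots at large in all 3 sections. The same held in CA1, with 1.33-fold against 1.54-fold in CON, 1.43-fold against 1.58-fold in RES and 1.31-fold against 1.46-fold in SUS. In DG it was 1.24-fold against 1.49-fold, 1.55-fold against 1.79-fold and 1.38-fold against 1.65-fold.

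The deep spots comprised 21 spots of CON above 16326 UMIs, 17 of RES above 18256 and 16 of SUS above 20675. Those spots held 41.3%, 47.2% and 45.1% of all CA3 UMIs of their section. Of their CA3 neighbours, 46.4% in CON, 35.2% in RES and 40.5% in SUS were also deep spots, where 25% of all CA3 spots were. With deep spots defined in the same way, the shares were 44.1%, 46.2% and 43.6% in CA1, and 46.0%, 45.8% and 51.2% in DG. The largest connected group held 18 of the 21 spots in CON, 13 of the 17 in RES and 9 of the 16 in SUS. In the maps these spots trace a curved line through CA3 in each section. Deep spots were defined by UMIs after the values were seen, so their depth is a description. Whether the line follows the pyramidal cell layer was not tested.

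The medians of the deep spots were also low in the 3 percentages. Their median mitochondrial percentage was 5.56% against 12.4% in the other CA3 spots of CON, 5.68% against 12.2% in RES and 5.48% against 9.21% in SUS. All 21, 17 and 16 spots lay below the CA3 median of their section. For ribosomal protein genes, which encode the protein part of the ribosome, the medians were 5.94% against 7.04% in CON, 5.79% against 7.08% in RES and 6.15% against 7.30% in SUS, with 18 of 21, 17 of 17 and 16 of 16 spots below the CA3 median. Red blood cell UMIs were at 0.00954% against 0.0307% in CON, 0.0408% against 0.0881% in RES and 0.190% against 0.370% in SUS, but single deep spots reached 3.01% in RES and 3.48% in SUS. The CON values of this measure rest on few UMIs per spot. The mitochondrial medians of the deep spots thus lay between 5.48% and 5.68%, and those of the other CA3 spots between 9.21% and 12.4%, with SUS the lowest in both. Deep spots of CA1 were also lower than its other spots, at 5.64% against 13.4%, 4.45% against 9.73% and 5.26% against 7.65%. In DG the values were 6.37% against 12.7%, 3.95% against 15.3% and 4.95% against 8.72%.

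The same relation held over the full range of depth. Spearman's rho between UMIs and the mitochondrial percentage was −0.757 in CON (84 spots), −0.922 in RES (68 spots) and −0.791 in SUS (64 spots). In CA1 it was −0.652, −0.718 and −0.461, and in DG −0.667, −0.876 and −0.671. Between UMIs and the ribosomal protein percentage rho was −0.736, −0.750 and −0.745 in CA3. For the red blood cell percentage it was −0.497, −0.648 and −0.383. Between the mitochondrial and the ribosomal protein percentage it was 0.543, 0.681 and 0.883 in CA3, 0.630, 0.824 and 0.703 in CA1, and 0.460, 0.0363 and 0.167 in DG. The points are spots of 1 section that share a library, and the measures share the UMIs of a spot, so these values are descriptions only.

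**Figure D2:**
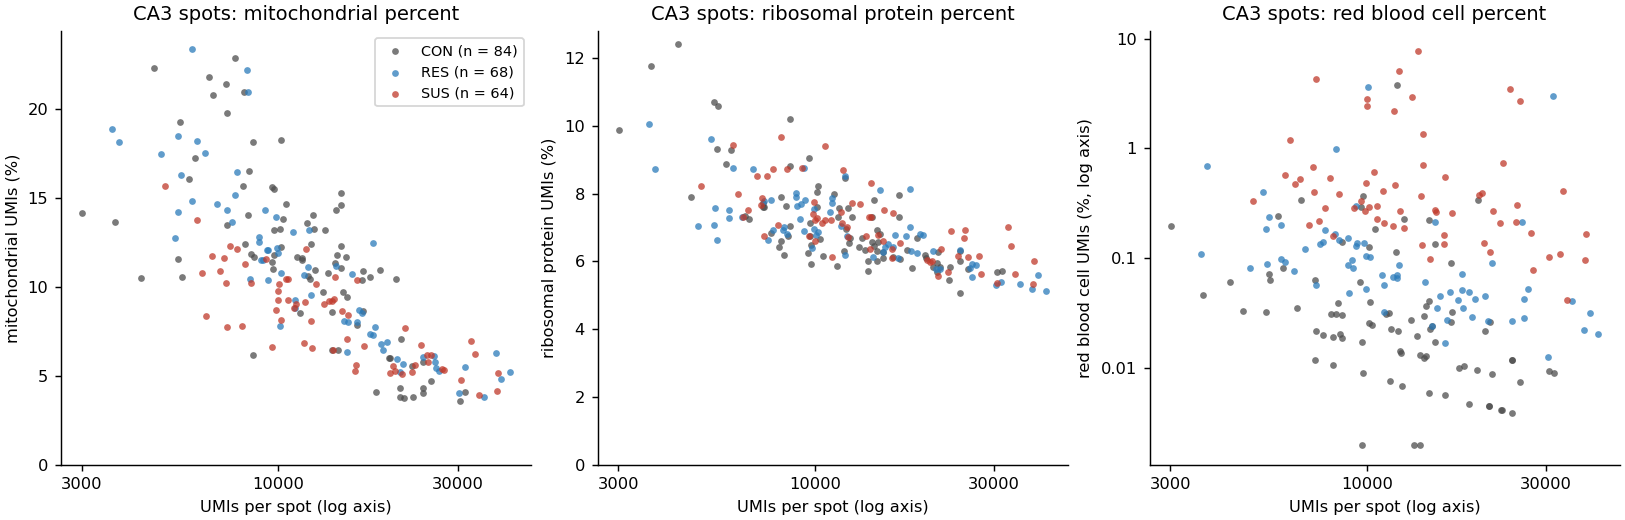
Percentages of mitochondrial, ribosomal protein and red blood cell UMIs against UMIs per spot (log axis) for the CA3 spots of the 3 sections, 1 point per spot. All 3 percentages tend to be lower in deeper spots of every section. The red blood cell percentage (log axis, with the 3 CON spots at 0 drawn at the foot) also differs between the sections over the whole range of depth.

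The deposited total of UMIs does not contain all of the UMIs behind the percentages. At the deposited total, the 3 percentages gave whole numbers of UMIs in none of the 84, 68 and 64 CA3 spots. A single larger total gave whole numbers, within 1e-06, for all 3 percentages in every one of them. The larger total exceeded the deposited total by a median of 13.7% in CON, 13.6% in RES and 11.5% in SUS. Mitochondrial UMIs were a median of 96.6%, 90.9% and 86.5% of the excess. The part missing from the deposited UMIs of a CA3 spot was thus close in size to its mitochondrial UMIs in CON, and less so in RES and SUS. Mitochondrial and red blood cell UMIs together were 97.0%, 92.4% and 90.6% of the excess. Against the larger total, Spearman's rho with the mitochondrial percentage was −0.715 in CON, −0.895 in RES and −0.774 in SUS.

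The mitochondrial percentage counts transcripts of the mitochondrial genome, which encodes subunits of the respiratory chain. It was lowest in the SUS section. CON spots lay between 3.59% and 22.8% with a median of 11.6% (10.8 to 12.4), RES spots between 3.79% and 23.4% with a median of 10.7% (8.52 to 12.2), and SUS spots between 3.91% and 15.7% with a median of 8.38% (6.84 to 9.22). The lower ends of the ranges were alike and the upper end was lower in SUS. Above 15%, a level chosen after the values were seen, lay 17 of 84 CON spots (20.2%, 12.3 to 30.4), 12 of 68 RES spots (17.6%, 9.47 to 28.8) and 1 of 64 SUS spots (1.56%, 0.0396 to 8.40).

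Relative to CON the median mitochondrial percentage of CA3 was 0.925 times as high in RES (0.688 to 1.13) and 0.723 times in SUS (0.552 to 0.858). In the SUS section the interval does not include 1. With CA3 spots matched 1 to 1 on UMIs within 10%, the median ratio was 0.9498 in RES over 59 pairs (0.834 to 1.06) and 0.769 in SUS over 57 pairs (0.672 to 0.8664). The SUS section was lower outside CA3 too. Over all its listed spots the ratio was 0.767, and scaled to the section's own median the CA3 ratio was 0.943.

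The ribosomal protein percentage of CA3 was close to equal in the 3 sections. The medians were 6.70% for CON (6.41 to 7.14), 6.89% for RES (6.64 to 7.08) and 7.05% for SUS (6.72 to 7.31), and the highest spots had 12.4%, 10.1% and 9.67%. As a multiple of CON, RES stood at 1.03 (0.930 to 1.10) and SUS at 1.05 (0.940 to 1.14). At matched UMIs the RES ratio was 0.986 (0.933 to 1.02), with 33 of 59 pairs below 1, and the SUS ratio 1.05 (1.01 to 1.12), with 38 of 57 pairs above 1. With means the ratios were 0.980 and 0.998.

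Red blood cell UMIs differed most between the sections. Their median was 0.0236% of the UMIs of a CA3 spot for CON (0.0190 to 0.0313), 0.0743% for RES (0.0528 to 0.0957) and 0.302% for SUS (0.266 to 0.406). RES was thus at 3.15 times the CON level (1.69 to 5.05), SUS at 12.8 times the CON level (8.49 to 21.4) and at 4.07 times the RES level (2.78 to 7.70). With means in place of medians, RES was at 2.08 times and SUS at 8.18 times the CON level. Above 0.1% lay 14 of 84 spots in CON (16.7%), 24 of 68 in RES (35.3%) and 60 of 64 in SUS (93.8%). The same order was seen outside CA3. The ratios to CON were 4.65 and 18.3 over all listed spots, 5.77 and 24.8 in CA1, and 6.10 and 38.1 in DG. Divided by the median of the section, the CA3 ratios turned below 1, to 0.678 in RES and 0.699 in SUS. Which genes make up this percentage is not given in the sources used here. The CON levels rest on few UMIs per spot, so the denominators of the ratios to CON are near the floor of counting. In CA3 of CON the larger total had a median of 14051.5 UMIs, and 3 of 84 spots had no red blood cell UMIs. In CA1 and DG of CON, 20 of 126 and 12 of 69 spots had none.

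A few CA3 spots carried much of the red blood cell signal. The highest spot reached 3.82% in CON, 3.61% in RES and 7.72% in SUS. Above 1% lay 1 CON spot, 2 RES spots and 11 SUS spots, and these held 45.4%, 46.8% and 69.1% of the summed percentages of CA3. Of the 11 SUS spots, 7 were next to another of them and 5 lay on the border of CA3. The levels of 0.1% and 1% were chosen after the values were seen. Whether these spots lie over vessels was not tested.

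Genes per spot followed the UMIs. The median was 4593.5 genes for CON (4150 to 4918), 4333.5 for RES (3858 to 5085) and 4557 for SUS (4170 to 5082), and rho with UMIs was 0.998, 0.997 and 0.997. Against CON these medians were 0.943 times (RES, 0.784 to 1.23) and 0.992 times (SUS, 0.848 to 1.22) as high, with both intervals including 1, and with means the SUS value was 1.06. At matched UMIs the intervals against CON were narrower and lay below 1. The RES spots had 0.977 times the genes of their CON partners (0.962 to 0.989), with 46 of 59 pairs below 1, and the SUS spots had 0.985 times (0.976 to 0.991), with 43 of 57 pairs below 1. SUS against RES gave 1.01 (1.002 to 1.02) over 49 pairs. In CA3 spots of 10000 to 15000 UMIs, the median was 4681.5 genes in CON (30 spots), 4393 in RES (11 spots) and 4434 in SUS (21 spots).

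**Figure D3:**
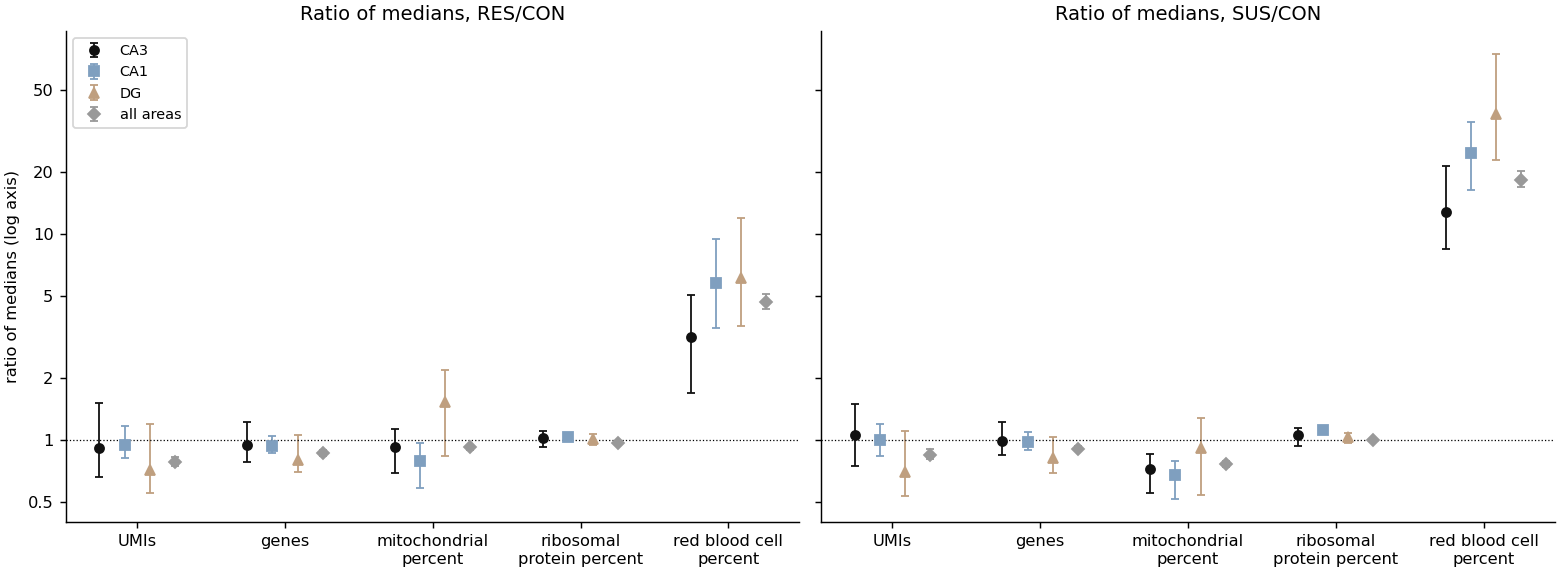
Ratio of the median over spots in RES (left) and SUS (right) to CON for the 5 measures, in CA3, CA1, DG and all listed areas, on a log axis. Bars are 95% intervals from the bounds of the medians and cover the spread within sections only. In CA3 the red blood cell ratios are 3.15 and 12.8, the mitochondrial ratio of SUS is 0.723, and the other CA3 intervals include 1.

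CA3 was then set against CA1 and DG within each section. The section is the replicate in these comparisons, and the two-sided exact sign-flip permutation test over 3 sections cannot give a p below 0.25, so no comparison could pass 0.05. Its p-values were adjusted by Benjamini-Hochberg over 12 comparisons. The area labels rest in part on marker genes from the same libraries, so the measures are not fully independent of the choice of spots.

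The ribosomal protein percentage separated CA3 from DG in every section. Its median was 6.70% in CA3 and 8.18% in DG for CON, 6.89% and 8.29% for RES, and 7.05% and 8.45% for SUS. CA3 was thus lower by 1.48, 1.41 and 1.40 percentage points. The ratios were 0.819 (0.7504 to 0.908), 0.830 (0.791 to 0.880) and 0.834 (0.785 to 0.881), which lie within a narrow range. Their geometric mean was 0.828 (exact permutation p = 0.25, adjusted 0.429, lower in 3 of 3 sections). Against CA1 the ribosomal protein ratio was 0.958 for CON, 0.956 for RES and 0.899 for SUS, and only the SUS interval (0.835 to 0.962) does not include 1. The geometric mean was 0.937 (exact permutation p = 0.25, adjusted 0.429, lower in 3 of 3 sections).

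CA3 spots were deeper than CA1 spots in 3 of 3 sections by an amount within the spread between spots. The CA3 medians of 12183, 11094 and 12902.5 UMIs stood against 10489.5 in CA1 of CON, 9898 in RES and 10485 in SUS. The ratios were 1.16 (0.903 to 1.48), 1.12 (0.836 to 1.67) and 1.23 (0.931 to 1.62). Genes per spot gave 1.07, 1.08 and 1.08, and the mitochondrial percentage 1.07, 1.25 and 1.14, again with every interval including 1. The geometric means were 1.17 for UMIs, 1.08 for genes and 1.15 for the mitochondrial percentage (exact permutation p = 0.25 and adjusted 0.429 for each). The mitochondrial value was 1.03 without spots next to FB or LV and 1.23 at matched UMIs.

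Against DG the order of depth was not the same in the sections. DG had medians of 14869 (CON), 10679 (RES) and 10455 UMIs (SUS). In the same order the CA3/DG ratio was 0.819 (0.599 to 1.23), 1.04 (0.677 to 1.63) and 1.23 (0.830 to 1.67). The mitochondrial ratio was 1.37 (0.836 to 1.83) in CON, 0.829 (0.574 to 1.13) in RES and 1.08 (0.788 to 1.33) in SUS. CA3 was deeper than DG in 2 of 3 sections and higher in mitochondrial percentage in 2 of 3. The geometric means were 1.02 for UMIs and 1.07 for the mitochondrial percentage (exact permutation p = 0.75, adjusted 0.9 for each), and 0.983 for genes (exact permutation p = 1, adjusted 1). Without the SUS section the UMI value was 0.923, without CON the mitochondrial value was 0.947 and that of genes 1.04.

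Red blood cell UMIs gave no common order of the areas. The CA3/CA1 ratio was 1.36 for CON (0.840 to 2.26), 0.741 for RES (0.403 to 1.22) and 0.701 for SUS (0.548 to 1.10). The CA3/DG ratio was 1.85 for CON (1.06 to 3.46), 0.954 for RES (0.488 to 1.49) and 0.622 for SUS (0.392 to 0.995). CA3 was thus above both neighbours in CON, which had the lowest red blood cell level, and below both in RES and SUS. The CON medians of the 3 areas rest on few UMIs per spot. In CON, 3 of 84 CA3, 20 of 126 CA1 and 12 of 69 DG spots had no red blood cell UMIs. Geometric means were 0.890 against CA1 (exact permutation p = 0.75, adjusted 0.9) and 1.03 against DG (exact permutation p = 1, adjusted 1). Without SUS the CA3/CA1 value was 1.002, and without CON the CA3/DG value was 0.770.

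At matched UMIs, CA3 spots had fewer genes than those of both neighbours. Against CA1 the ratio was 0.985 in CON over 78 pairs (0.975 to 0.992), 0.984 in RES over 60 pairs (0.978 to 0.993) and 0.988 in SUS over 55 pairs (0.978 to 0.9997). Against DG it was 0.974 in CON over 54 pairs (0.965 to 0.981), 0.965 in RES over 63 pairs (0.954 to 0.974) and 0.965 in SUS over 59 pairs (0.955 to 0.975). All 6 ratios were below 1. The geometric means were 0.986 against CA1 and 0.968 against DG (exact permutation p = 0.25 and adjusted 0.429 for both). With spots of 10000 to 15000 UMIs in place of pairs, the value against CA1 was 1.01.

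**Figure D4:**
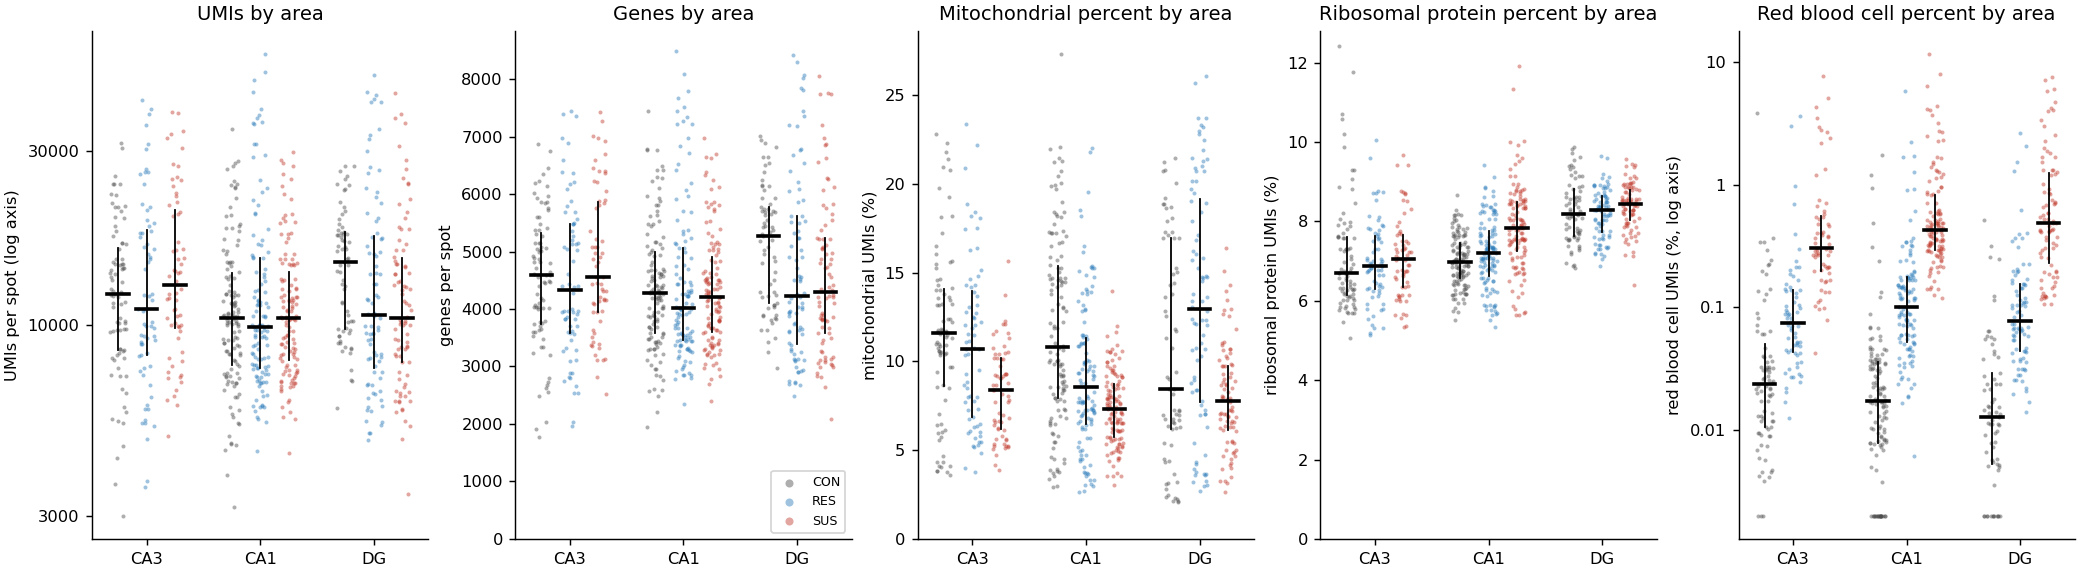
UMIs, genes and the 3 percentages of every CA3, CA1 and DG spot by section, with the median as a horizontal bar and the quartiles as a vertical line. UMIs and the red blood cell percentage have log axes, and spots with no red blood cell UMIs are drawn at the foot. The ribosomal protein medians of DG (8.18% to 8.45%) lie above those of CA3 (6.70% to 7.05%) in each section.

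Among the 17 labelled areas, CA3 kept its rank in the mitochondrial percentage and changed it in depth. It had the fourth highest median mitochondrial percentage in each section. By median UMIs it ranked 14 of 17 in CON, 6 of 17 in RES and 7 of 17 in SUS, and its median was 0.944, 1.10 and 1.18 times that of all listed spots of the section. In the ribosomal protein percentage it ranked 15, 11 and 10 of 17.

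Place within CA3 went with depth and composition. Interior spots, with CA3 on all 6 sides, numbered 46 (CON), 35 (RES) and 33 (SUS). Border spots numbered 38, 33 and 31. The median was 14132.5 UMIs inside and 9981.5 on the border for CON, 15700 and 9115 for RES, and 16014 and 11786 for SUS. Depth did not rise steadily inward. In layers counted from the border, the medians were 9981.5, 12144, 17507.5 and 13143 UMIs for CON. They were 9115, 16927.5, 12220 and 11077.5 for RES, and 11786, 20213, 14148 and 11724 for SUS. The innermost layer held only 5, 2 and 1 spots. The interior was the deeper in all 3 sections, with ratios of 1.42, 1.72 and 1.36, and each of their intervals includes 1. The DG interior was deeper too, with ratios of 1.61 (0.975 to 1.90), 1.79 (1.18 to 2.55) and 1.60 (1.12 to 2.22). In CA1 the ratios were 0.667 (0.490 to 0.884), 1.10 (0.831 to 1.84) and 0.993 (0.773 to 1.31). A deeper interior was thus not particular to CA3. The ribosomal protein percentage was 6.27% inside and 7.59% on the border for CON, 6.44% and 7.69% for RES, and 6.61% and 7.52% for SUS. These ratios were 0.827 (0.738 to 0.962), 0.838 (0.783 to 0.935) and 0.880 (0.739 to 1.01). The interior was the lower in every section, and in CON and RES the interval does not include 1. In CA1 the same ribosomal ratio was 1.08 (1.03 to 1.14), 0.892 (0.815 to 0.948) and 0.898 (0.874 to 0.977), with no interval including 1. The CA1 interior was thus lower in RES and SUS, as in CA3, and higher in CON. In DG the ratio was 1.04, 1.02 and 1.02, with all 3 intervals including 1.

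The border next to the fibre tracts was shallow. The CA3 spots next to FB numbered 14, 11 and 11, and their medians were 5669 UMIs for CON (4324 to 9768), 6069 for RES (3757 to 9214) and 8456 for SUS (6063 to 15311). They had 2697, 2879 and 3636 genes, a mitochondrial percentage of 13.3%, 14.8% and 11.5%, and a ribosomal protein percentage of 9.09%, 7.81% and 8.70%. FB itself had the lowest median UMIs of the 17 areas in each section, with 3701, 3522.5 and 5599, and the highest ribosomal protein percentage, with 10.9%, 11.2% and 11.99%. The spots of CA3 next to FB thus lay between the CA3 interior and FB in both measures. A ribosomal protein percentage above the interior was not limited to this side, as CA3 spots next to TH had 7.89%, 7.90% and 7.71%. Whether they hold myelinated fibres was not tested.

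The 2 spots next to LV in CON and the 2 in RES had lower medians still, of 4858 and 4452.5 UMIs, with ribosomal protein percentages of 11.6% and 9.83%. Next to DG, where the mossy fibres enter, the median was 11794 UMIs in CON (12 spots), 13478.5 in RES (12 spots) and 10400 in SUS (10 spots). Next to TH it was 12117, 9403 and 12902.5 UMIs. Next to CA1 it was 11764, 9115 and 13725.5 UMIs over 8, 7 and 6 spots. These CA1-side spots had a median mitochondrial percentage of 16.3% for CON (4.33 to 22.8), 11.5% for RES (5.20 to 22.2) and 8.23% for SUS (4.75 to 11.7), with the CA3 median of each section inside the interval. Without the CA3, CA1 and DG spots next to FB or LV, the CA3/CA1 ratio of UMIs was 1.43 in place of 1.17, and the CA3/DG ratio of ribosomal protein percentage 0.807 in place of 0.828. The CA3/CA1 mitochondrial ratio was then 1.03 in place of 1.15.

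**Figure D5:**
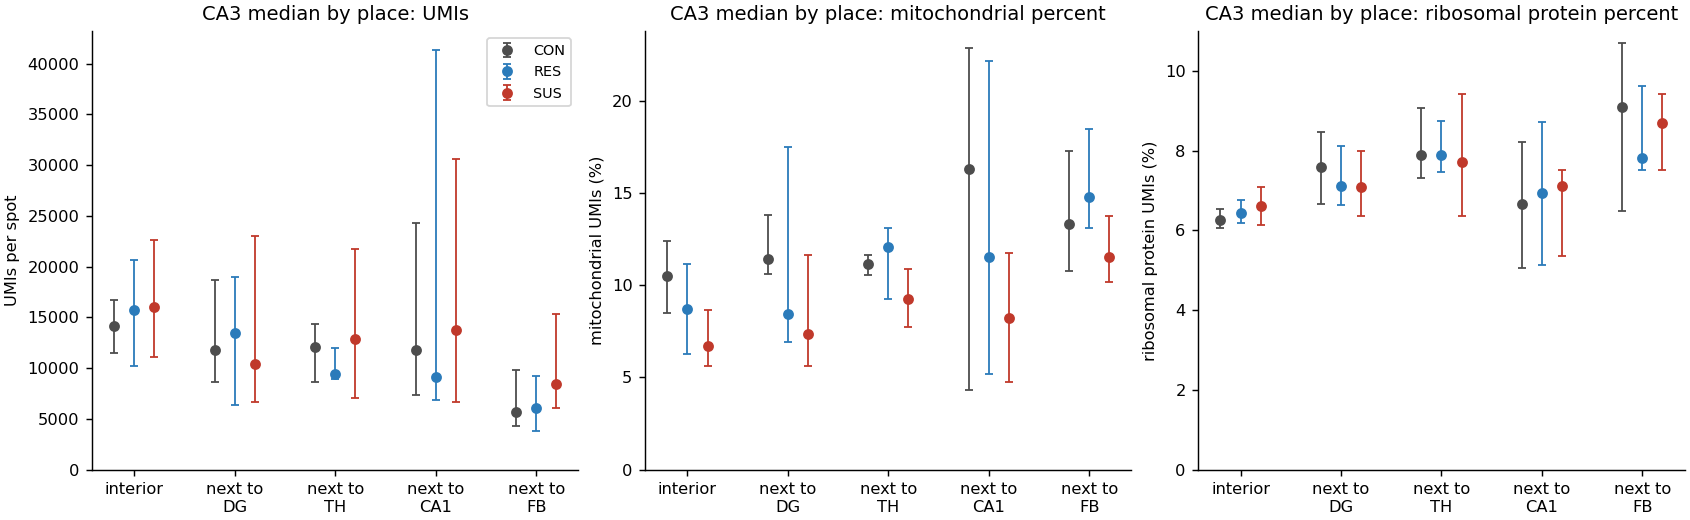
Median UMIs, mitochondrial percentage and ribosomal protein percentage of CA3 spots by place in the 3 sections, with 95% order-statistic intervals. Interior spots have CA3 on every side, and a spot that touches more than 1 area is counted with each. Of the 5 places drawn, the spots next to FB have the lowest UMIs in each section (5669, 6069 and 8456) and percentages above those of the interior. The 2 spots next to LV in CON and in RES are not drawn.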

How the data were processed

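Visium libraries of 3 sections were sequenced by the authors, processed with ST Pipeline, mapped to mm10 and read into Seurat with filters on rare genes and shallow spots, and the submitters' processing notes also name bcl2fastq, cutadapt and Space Ranger 1.0.0. The deposited table holds counts of UMIs and of genes per spot, without normalization, and the authors' percent of UMIs from genes of mitochondria, ribosomal proteins and red blood cells. Which genes and which total they used for these is not given in the sources used here. UMIs of all listed spots added up to 37536349 (CON), 31196847 (RES) and 34979160 (SUS).

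Spots were grouped by the deposited section label and joined to their grid places by barcode. Medians over spots have 95% order-statistic intervals, ratios of medians take the bounds of both, and shares have Clopper-Pearson intervals. They cover counting error or spread between spots within a section only. Spots were matched on UMIs 1 to 1 within 10%, nearest first. CA3/CA1 and CA3/DG were tested over sections by a two-sided exact sign-flip permutation test of log2 ratios. CA1, DG and any area holding at least 5% of the neighbouring places in a section (FB) were named by rule, and TH and LV were added after their values were seen. The CA3 spots, neighbouring areas and measures were chosen with earlier results of these data known. The scripts were tested on simulated data. Alternatives covered which spots were used, means, division by the section's median, matching on UMIs and leaving out each section, and 2 more were added after the data were seen (the larger total, and leaving out spots next to FB or LV). Image scale factors were not used here. The analysis used scipy 1.17.1, pandas 2.3.3, numpy 2.4.6 and, for the figures, matplotlib 3.10.9 under Python 3.11.15.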

Additional observations from a re-analysis of the deposited data

Results flagged for a closer look

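In 3 cases the ratio of a stressed mouse's section to CON lay on the other side of 1 in CA3 than in a neighbouring area. The UMI ratio of SUS to CON was 1.06 in CA3 and 0.703 in DG, so the CA3 ratio was 1.51 times that of DG. Against CA1, where the same ratio was 0.9996, the CA3 value was 1.06 times as high. The mitochondrial ratio of RES to CON was 0.925 in CA3 and 1.53 in DG, a quotient of 0.605. The intervals of all of these section ratios include 1, and with 1 section per condition the differences were not tested.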

How the results depend on the processing

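Of 180 alternative ratios, 29 lay on the other side of 1 than the reported ratio. For 13 of these, in 6 results, the reported RES/CON or SUS/CON ratio had an interval that includes 1. UMIs RES/CON gave 1.10 with means, 1.17 after division by the section's median and 1.08 without spots next to FB or LV. Genes RES/CON gave 1.09 and 1.01 under the last 2 of these. Genes SUS/CON gave 1.06, 1.09 and 1.02 under the 3, and 1.03 with spots that had at least 4 adjacent spots of their area. The mitochondrial RES/CON ratio was 1.005 after division by the section's median, the ribosomal protein RES/CON ratio 0.980 with means and 0.986 at matched UMIs, and the SUS/CON ratio 0.998 with means. The other 16, and 4 values that moved out of the interval of the reported ratio, follow. The CA3/DG ratio of UMIs was 0.975 with spots that had at least 4 adjacent spots of their area and 0.997 with the larger total behind the percentages, and leaving out each section gave 0.923 (without SUS) to 1.13. Leaving out spots next to FB or LV gave CA3/DG ratios of 1.06 for genes, 0.987 for the mitochondrial percentage and 0.968 for the red blood cell percentage. Without each section in turn, the CA3/DG values were 0.946 to 1.04 for genes, 0.947 to 1.22 for the mitochondrial percentage and 0.770 to 1.33 for the red blood cell percentage, each on the other side of 1 without CON. With means in place of medians the CA3/DG mitochondrial ratio was 0.988, the CA3/CA1 red blood cell ratio 1.08 and the SUS/CON red blood cell ratio 8.18. The CA3/CA1 red blood cell ratio was 1.07 at matched UMIs and 0.721 to 1.002 without each section, with the upper value without SUS. Division by the section's median gave 0.943 for the SUS/CON mitochondrial ratio, and 0.678 and 0.699 for the RES/CON and SUS/CON red blood cell ratios. In the window of 10000 to 15000 UMIs, which holds 11 to 30 CA3 spots per section, genes gave 0.938 for RES/CON, 0.947 for SUS/CON and 1.01 for CA3/CA1. Except where an alternative's own construction sets the value, the cause was not tested. No paired analysis between conditions was possible because each condition has 1 section, and no test between conditions was made. With 64 to 84 CA3 spots per section, the interval of the RES/CON ratio of median UMIs spans 0.661 to 1.51, which covers the spread between spots of these sections and sets no limit for a difference between conditions.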
